A study of Sus scrofa with 16 samples.

Results

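The let-7 family of microRNAs (miRNAs) was followed in the ovaries of sows with high or low fecundity in the luteal and the follicular phase of the estrous cycle. Its members were taken by name from the deposited count table, as every entry called ssc-let-7 or ssc-miR-98. This gave 7 entries, ssc-let-7a, ssc-let-7c, ssc-let-7e, ssc-let-7f, ssc-let-7g, ssc-let-7i and ssc-miR-98, of the 216 known miRNAs and of 1940 entries in all. All 16 animals were Canadian Large White sows, sorted by litter size, and 1 small RNA library was made from the ovarian tissue of each. The LH group (4 sows of high fecundity) and the LL group (4 sows of low fecundity) were slaughtered on day 14 in the luteal phase, counting the first day of estrus as day 1. The FH group (4 sows of high fecundity) and the FL group (4 sows of low fecundity) were slaughtered on day 20 in the follicular phase. No sow was treated, and none was sampled in both phases. The sows were not related by the study's records, so p-values measure the spread between sows. By the same records every LH sow had borne more litters than any LL sow, so the number of litters and fecundity cannot be told apart by group in the luteal phase, and it was tried as a covariate.

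The let-7 miRNAs are among the most conserved miRNAs of animals. They share a seed, the run of bases near the 5′ end that pairs with target mRNAs, and so are expected to bind overlapping sets of targets, among them mRNAs of the RAS and HMGA2 genes. Their level generally climbs as cells differentiate, and the RNA-binding proteins LIN28A and LIN28B block their maturation in early embryos and germ cells. In the ovary, granulosa cells of the follicle and the luteal cells that they become after ovulation are known to contain let-7.

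The let-7 seed was also searched for among the predicted miRNAs, since an entry with the same seed could belong beside the named members. The motif GAGGUAG at bases 2 to 8 of the mature RNA, read on the given strand, was found in 10 of the 1700 predicted entries with a sequence (0.588%). The 4 different mature sequences that carry it are shown 5′ to 3′ with the seed in capitals, because 1 of them returns in the results on the cycle phase.
NovelmiRNA-1304: uGAGGUAGuaggcugugugg
NovelmiRNA-67: uGAGGUAGuaggcuguguggg
NovelmiRNA-429: uGAGGUAGuaguugguacuga
NovelmiRNA-547: uGAGGUAGuagguugcca
NovelmiRNA-1304 is predicted on the minus strand of chr16:6629175-6629257 in Sscrofa10.2, and 7 of the other entries have overlapping precursors on that strand. Those 7 entries share its mature sequence of 20 bases or, as NovelmiRNA-67, one that is longer by a base. In each of the 16 libraries exactly 1 of the 7 had reads, with the same count as NovelmiRNA-1304, so the locus is described by NovelmiRNA-1304 alone. NovelmiRNA-429 (chr2:70978366-70978429, minus strand) had 66 counts, all in LL1, and NovelmiRNA-547 (chr1:120241207-120241270, plus strand) had 10 counts, all in FH4.

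Library totals ran from 8998496 to 37194836 counts. Levels are CPM, counts relative to the library total after scaling with TMM factors (trimmed mean of M-values), which align the bulk of the miRNAs between libraries. The factors were highest in LL, at 1.19 to 1.74 against 0.67 to 1.23 in the other groups, so that TMM scaling lowers the values of LL relative to plain shares of counts. The gonadal marker ssc-miR-202-5p had counts in every library, at 1209 to 3843 CPM in the luteal and 64.5 to 1302 CPM in the follicular libraries. RNA came from unsorted ovarian tissue, so a lower level can be fewer cells of a type or less RNA per cell, and these cannot be told apart. Which part of an ovary was taken is not given in the sources used here. A miRNA is said to have risen or fallen where edgeR's quasi-likelihood test gave a Benjamini-Hochberg adjusted p under 0.05 over all miRNAs tested. The study's threshold, an unadjusted P under 0.05 and a log2 fold change of at least 1 in either direction, is given beside it.

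The 7 entries of the let-7 family held 8.66% of all counts, from 5.73% to 11.7% of a library, with entries of identical counts each included. No entry of the count table is named let-7b, and none is named let-7d, although RefSeq lists the gene MIRLET7D. All family shares are therefore of these 7 entries. All 7 members had reads in all 16 libraries, with at least 2605 counts each, so depth did not limit any of them. Over all libraries let-7c made up 26.3% of the family's counts, let-7i 22.6%, let-7g 20.8%, let-7a 15.5% and let-7f 13.1%, whereas let-7e made up 1.27% and miR-98 0.505%. By total counts let-7c was number 9 of the 216 known miRNAs, and let-7i and let-7g were numbers 11 and 12. Mature miRNAs are of nearly the same length, so these shares were not divided by length. How reads were shared among members that differ by single bases is not given in the sources used here, and the shares of let-7a, let-7c and let-7f in particular rest on that step.

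The summed level of the family depended on the scale. As a percentage of all counts the family was at 9.48 ± 1.59% for LH and 9.40 ± 1.62% for LL, and at 7.25 ± 1.10% for FH and 8.60 ± 1.04% for FL (mean ± SD, n = 4 sows). The ranges of the 4 groups overlapped, with LH and LL nearly level. With TMM scaling the sum was 101060 ± 13903 CPM for LH and 66433 ± 16752 CPM for LL, against 92352 ± 14977 CPM for FH and 91975 ± 18323 CPM for FL. On that scale LL was the lowest group, although its highest library (LL2, 85765 CPM) lay just above the lowest of LH (LH4, 85565 CPM). No difference in the summed family is therefore stated for LH and LL.

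**Figure D1:**
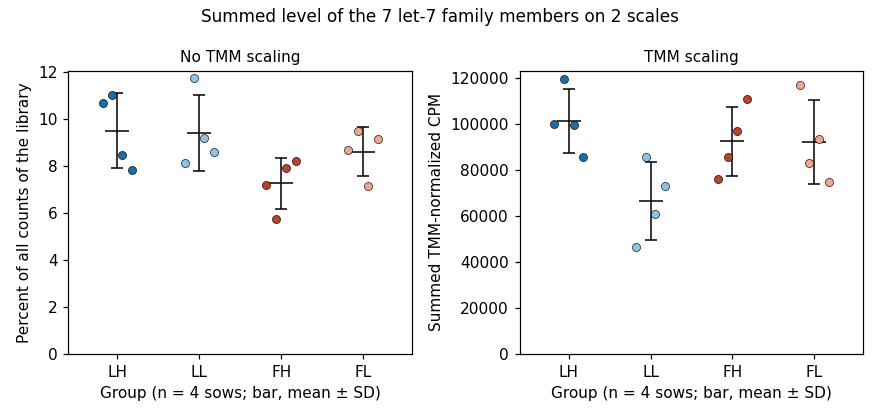
Summed level of the 7 members in each library (points), with the mean and SD of 4 sows per group (bars), as a percentage of all counts (left) and as TMM-normalized CPM (right). LH and LL were level at 9.48% and 9.40% of counts on the left, whereas LL had the lowest mean on the right.

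The make-up of the family differed between the phases, and this does not depend on scaling between libraries because each share is taken within a library. let-7c was the most abundant member in all 8 follicular libraries and in 1 of 8 luteal libraries (LH2). In the luteal libraries let-7i led in 5 and let-7g in 2. The share of let-7c in the family's counts was 15.7%, 27.0%, 15.6% and 21.4% in LH1 to LH4 and 22.2%, 9.04%, 21.0% and 18.9% in LL1 to LL4. In the follicular phase it was 28.9%, 33.9%, 28.8% and 34.5% in FH1 to FH4 and 31.7%, 53.5%, 41.2% and 36.5% in FL1 to FL4. The highest luteal share thus lay below the lowest follicular share, and LL2 and FL2 were the extremes.

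By mean share the order in both LH and LL was let-7i, let-7g, let-7c, let-7f, let-7a, let-7e and miR-98. The ranges of neighbours overlapped for the first 5 in both groups, and let-7e and miR-98 were each apart from the member above them. The share of miR-98 was 0.655% to 0.777% in LL, above the 0.297% to 0.573% in LH, 0.427% to 0.511% in FH and 0.306% to 0.507% in FL. The shares of the other members overlapped between LH and LL. These differences in share were not tested. In FH the order was let-7c, let-7g, let-7i, let-7a, let-7f, let-7e and miR-98, and let-7c was apart from let-7g, as let-7f was from let-7a. In FL let-7c was again first but let-7i was second, and the first 5 overlapped with their neighbours.

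**Figure D2:**
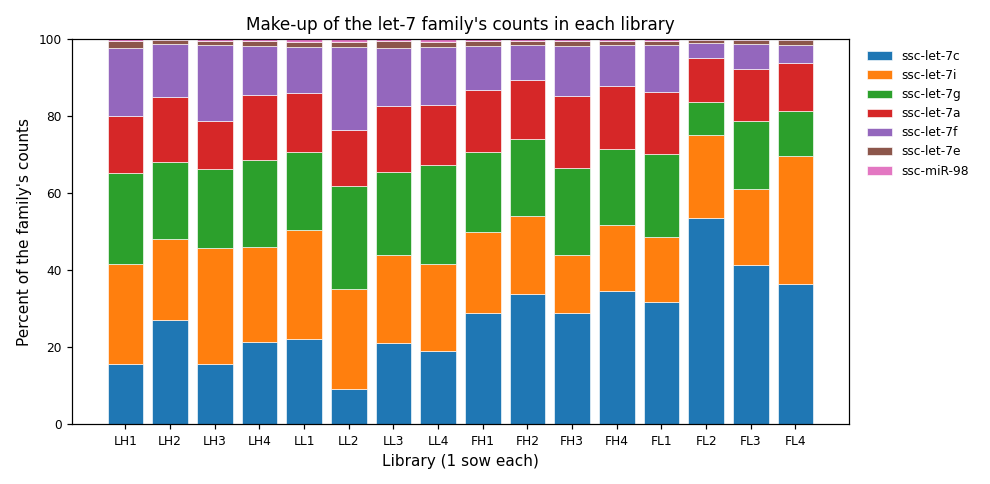
Percentage of the family's counts taken by each member in each library, stacked to 100%. The let-7c part (bottom) reached at most 27.0% in the 8 luteal libraries and at least 28.8% in the 8 follicular libraries, and the let-7f part was small in FL2, FL3 and FL4.

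The comparison of the phases asks how the level of each member differed between day 14 and day 20. Only let-7c passed the adjusted threshold, and it was lower in the luteal phase. Its level was 15705, 32227, 15508 and 18337 CPM in LH1 to LH4 and 10340, 7755, 12721 and 13783 CPM in LL1 to LL4. It was 22022, 28966, 27891 and 38268 CPM in FH1 to FH4 and 37099, 44388, 38475 and 27189 CPM in FL1 to FL4. The 4 LL libraries lay below all others, 3 LH libraries lay below all follicular ones, and LH2 lay within the follicular range. Over all 16 libraries let-7c fell 2.17-fold in the luteal phase (log2 fold change -1.12, SE 0.20, 95% interval -1.54 to -0.70, edgeR adjusted p = 0.00222). This was 1 of 7 members, where 17.5% of all 445 miRNAs tested passed. By the study's threshold let-7c was again the member called, as 23.4% of all miRNAs were, and by an unadjusted P under 0.05 likewise, as 32.8% were. DESeq2 with the same filter also called let-7c (adjusted p = 5.21e-06), whereas DESeq2 without a filter or outlier handling did not (-1.16, adjusted p = 0.985).

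The other 6 members were not called in this comparison. let-7a had a log2 fold change of -0.14 and let-7e, let-7g, let-7i and miR-98 lay between 0.15 and 0.23, close to the median of all miRNAs tested (0.17). The median of the 200 known miRNAs among those tested was lower, at -0.015. Of these 6 members let-7f was the largest, at 0.69 (unadjusted P = 0.0501, edgeR adjusted p = 0.152). Without TMM factors, scaling by library size only, the median of all miRNAs tested moved to 0.55 and 6 members passed. let-7c was still lower in the luteal phase (-0.69, edgeR adjusted p = 0.0271), and let-7e, let-7f, let-7g, let-7i and miR-98 were higher, by 0.55 to 1.16. In the 6 comparisons this choice of scaling moved the median by 0.19 to 0.58, so values of the other members are read relative to that median.

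Between sows of low fecundity, LL vs. FL, the LL libraries lay at 7755 to 13783 CPM of let-7c and the FL libraries at 27189 to 44388 CPM. The groups did not overlap, and let-7c fell 3.08-fold in LL (log2 fold change -1.62, SE 0.30, edgeR adjusted p = 0.0121, exact two-sided permutation p = 0.0286, the smallest that 4 against 4 can give). It was the only member of 7 called, where 17.7% of the 339 miRNAs tested were called and 29.5% did not overlap between the groups. let-7c was also the member past the study's threshold (29.8% of all miRNAs tested) and with an unadjusted P under 0.05 (32.4%). DESeq2 called it with the same filter (adjusted p = 4.81e-07) but not without a filter or outlier handling (-1.69, adjusted p = 0.623). Between sows of high fecundity, LH vs. FH, let-7c was at -0.48 (SE 0.27, edgeR adjusted p = 0.407). Without LH2 it was at -0.76 there (unadjusted P = 0.00573, edgeR adjusted p = 0.122). LL vs. FL and LH vs. FH use parts of the same libraries as the comparison over all 16.

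In LH vs. FH no member passed the adjusted threshold in edgeR, 2 had an unadjusted P under 0.05, and DESeq2 with the same filter called none. Of all 323 miRNAs tested, 0.929% were called and 15.8% had an unadjusted P under 0.05. No member passed the study's threshold, which 12.4% of all passed. let-7i was at 25822, 25072, 29874 and 21042 CPM in LH1 to LH4 and at 16040, 17164, 14592 and 19009 CPM in FH1 to FH4. These groups did not overlap, as was the case for 11.8% of the miRNAs tested, and the log2 fold change was 0.65 (SE 0.17, edgeR adjusted p = 0.239). let-7f was at 0.70 (SE 0.26, edgeR adjusted p = 0.240), and its groups overlapped.

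The level of let-7f varied among the follicular libraries. It was at 8858, 7655, 12621 and 11896 CPM in FH1 to FH4, at 14121 CPM in FL1 and at 3122, 6105 and 3558 CPM in FL2 to FL4. FL1 was above all FH libraries and the other FL libraries were below them. In the luteal phase it was at 17653, 16392, 19632 and 10875 CPM in LH1 to LH4 and at 5580, 18537, 9265 and 10954 CPM in LL1 to LL4. Without FL1 the luteal over follicular log2 fold change of let-7f was 1.04 with an edgeR adjusted p of 0.0272, past the threshold that it missed with all 16 libraries. With library size only and all 16 libraries it was at 1.16 (edgeR adjusted p = 0.00923).

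The ratio of let-7c to let-7f counts, chosen after their values were seen, put both members on 1 scale within a library. It was 0.790 to 1.97 for LH and 0.418 to 1.85 for LL, against 2.21 to 3.78 for FH and 2.63 to 14.2 for FL. All luteal ratios lay below all follicular ones, and FL2, FL3 and FL4 stood above the rest at 14.2, 6.30 and 7.64.

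**Figure D3:**
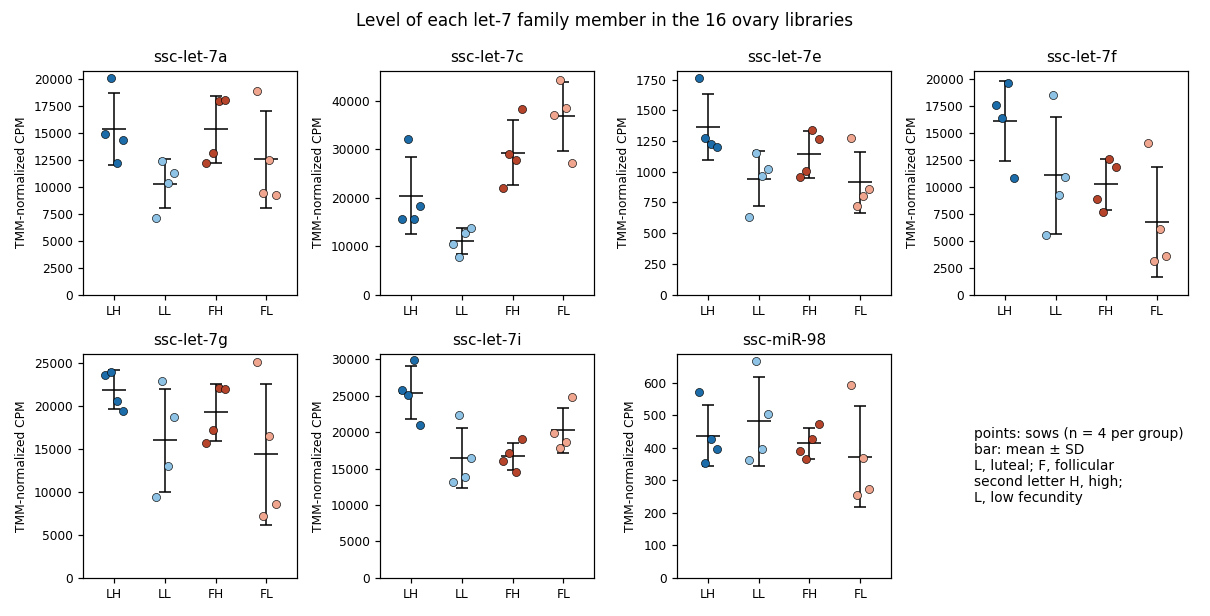
TMM-normalized CPM of each member in each sow (points), with the mean and SD of 4 sows per group (bars). let-7c had its 4 lowest values in LL, at 7755 to 13783 CPM, and let-7f, let-7g, let-7a and miR-98 each had their highest FL value in FL1.

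Markers of other cell types differed between the groups as well, some with let-7c and some against it. The summed level of the smooth muscle miRNAs ssc-miR-143-3p and ssc-miR-145-5p, neither of them at 0 in any library, was 111488 to 212844 CPM for LH and 71951 to 91143 CPM for LL, against 232331 to 444650 CPM for FH and 170439 to 310982 CPM for FL. Like let-7c it was lowest in LL and higher in the follicular phase. The gonadal marker moved the other way, with means of 1930 CPM (LH) and 2203 CPM (LL) against 802 CPM (FH) and 323 CPM (FL). Of the 6 skeletal or cardiac muscle miRNAs, with ssc-miR-208b at 0 in 14 libraries, the sum was 449 to 984 CPM in LL and 565 to 4256 CPM in the other groups. By group means ssc-miR-1 made up most of this sum, whereas ssc-miR-499-5p was highest in LL, at 137 to 154 CPM against at most 127 CPM (LH), 86.5 CPM (FH) and 69.8 CPM (FL). The 5 miRNAs of ciliated or tubal epithelium, all detected in every library, summed to 21828 CPM in LH4, 16083 in FL4 and 7510 in FL2, and to 145 to 1118 CPM in the other libraries. Most of the high sums was ssc-miR-34c, which reached 21379 CPM in LH and 15224 CPM in FL. ssc-miR-182 and ssc-miR-183 of that list were higher in LL, with means of 462 and 172 CPM, than in FL, with 119 and 31.1 CPM. The 4 leukocyte miRNAs summed to 827 to 1370 CPM for LH, below the 1568 to 2070 CPM for FH, and to 1221 to 1941 CPM for LL and 1489 to 2994 CPM for FL. Of these 4, ssc-miR-142-5p was at 0 in 6 libraries, among them all 4 of LH, and at 149 to 201 CPM in FH. ssc-miR-150 and ssc-miR-146a-5p had higher means in FH than in LH. ssc-miR-155-5p went the other way, with means of 232 CPM (LH) and 187 CPM (FH). The 3 neural miRNAs summed to 18.3 to 36.5 CPM in LL and 36.6 to 176 CPM in the other groups, with ssc-miR-124a at 0 in 15 libraries and ssc-miR-137 in 2. The liver miRNA ssc-miR-122 was at 1363 CPM in FL2 and at 1.76 to 277 CPM elsewhere. The part of these cell types in the results on let-7c and let-7f was not tested.

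The comparisons of fecundity ask how the ovaries of sows with small litters differ from those of sows with large litters within a phase. In LH vs. LL no member passed the adjusted threshold in edgeR, where 0.829% of 362 miRNAs did. Unadjusted, 2 members had P under 0.05, as 18.0% of all miRNAs had, and 0 passed the study's threshold, as 13.0% of all did. DESeq2 with the same filter called none by adjusted p and 4 by unadjusted P. let-7c was 1.82-fold lower in LL (log2 fold change -0.87, SE 0.33, unadjusted P = 0.0289, edgeR adjusted p = 0.253). let-7i was 1.52-fold lower (-0.60, SE 0.21, unadjusted P = 0.0229, edgeR adjusted p = 0.244). The 4 LL libraries of let-7c (7755 to 13783 CPM) lay below the 4 LH libraries (15508 to 32227 CPM), and without LH2 the log2 fold change was -0.58 (unadjusted P = 0.0619). With parity, the number of litters, as a covariate let-7c was at -0.84 (unadjusted P = 0.354, edgeR adjusted p = 0.720) and let-7i at -0.29 (unadjusted P = 0.562). The number of members with an unadjusted P under 0.05 was 0 with parity, with the share of reads that passed cleaning as a covariate, or with DESeq2 without a filter or outlier handling. It was 1 without LH2, LL1 or LL3 and with library size only, and 5 without LL2, where let-7a, let-7e, let-7f, let-7g and let-7i had it.

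The other members of LH vs. LL were close to each other. let-7a, let-7e, let-7f and let-7g were at -0.57, -0.52, -0.52 and -0.44, and miR-98 was at 0.16. The median over the 7 members was -0.52, against 0.15 over all miRNAs tested and 0.016 over the 192 known miRNAs among them. The groups did not overlap for let-7c and let-7e, 2 of 7 members, where 15.7% of all miRNAs tested did not. With library size only, let-7a, let-7e, let-7f and let-7g turned to 0.02, 0.04, 0.04 and 0.12, and let-7i came to -0.02 and let-7c to -0.25. miR-98 came to 0.72, the highest of the 7 members, while the median of all miRNAs moved to 0.73. The direction of let-7a, let-7e, let-7f and let-7g against 0 in LL therefore depended on the scaling. On both scales they lay below the median of all miRNAs tested (0.15 with TMM, 0.73 with library size only). This distance to the median was not tested. The size of let-7f and let-7g also moved with other choices. let-7f came to -0.075 with clean read share and -0.012 with parity as a covariate, and to -0.96 without LL2. let-7g came to -0.066, -0.085 and -0.73 in the same 3 fits.

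In FH vs. FL no member passed the adjusted threshold in edgeR, where 0.651% of 307 miRNAs did, and DESeq2 with the same filter gave 0 as well. None had an unadjusted P under 0.05 in either tool or passed the study's threshold, against 7.17% and 6.19% of all miRNAs in edgeR. No member had groups without overlap, as 2.61% of all miRNAs tested had. let-7f was at -0.51 (SE 0.58, 95% interval -1.86 to 0.83) and let-7c at 0.32 (SE 0.26, 95% interval -0.28 to 0.91). Without FL1, which stood above the other FL libraries in let-7f, let-7f came to -1.29 (unadjusted P = 0.00648, edgeR adjusted p = 0.156). In that fit let-7a (-0.58), let-7e (-0.56) and let-7g (-0.85) also had an unadjusted P under 0.05, and none passed after adjustment. With the share of reads that passed cleaning as a covariate let-7f was at 0.04, so the direction in FL is not stated.

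Whether the fecundity difference itself differed between the phases was tested as an interaction over all 16 libraries. In edgeR 0 of the 7 members and 0 of the 445 miRNAs tested (0%) passed the adjusted threshold, and 2 members had an unadjusted P under 0.05, as 14.2% of all miRNAs had. let-7c was at -1.20 (SE 0.39, unadjusted P = 0.00793) and let-7i at -0.91 (SE 0.28, unadjusted P = 0.00532), each with an edgeR adjusted p of 0.166. let-7c passed the study's threshold, as did 13.3% of all miRNAs tested, and was at -0.84 without LH2. DESeq2 with the same filter called let-7i (-0.85, DESeq2 adjusted p = 0.0177) and not let-7c (adjusted p = 0.0575). let-7i was at 13177, 22358, 13888 and 16481 CPM in LL1 to LL4 and at 19859, 17895, 18628 and 24793 CPM in FL1 to FL4. Its group means were thus lower in LL than in LH and higher in FL than in FH, with overlap in both pairs.

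**Figure D4:**
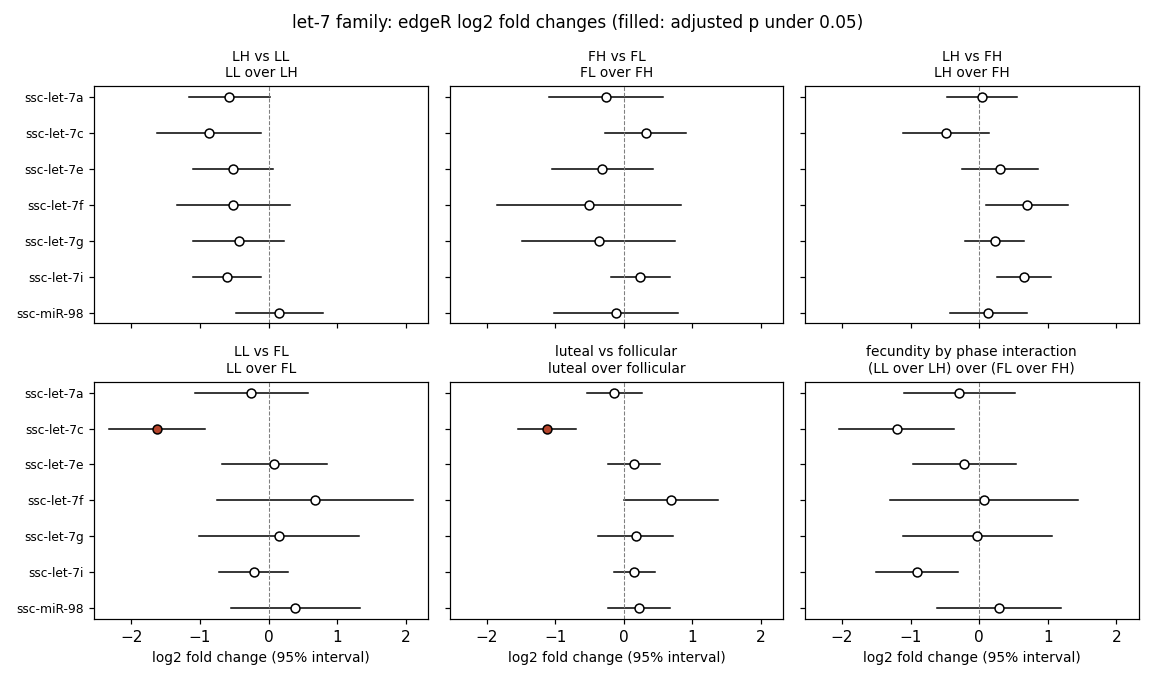
Log2 fold change and 95% interval of each member in the 6 edgeR comparisons, with the direction of each given above its panel and filled points for an adjusted p under 0.05. let-7c was the only member with a filled point, at -1.62 in LL vs. FL and -1.12 over both pairs of groups.

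NovelmiRNA-1304, the predicted entry with the let-7 seed, was lower in the luteal phase as let-7c was. It had 205255 counts in all, at 221, 692, 208 and 429 CPM in LH1 to LH4 and 188, 475, 193 and 201 CPM in LL1 to LL4. In the follicular phase it was at 759, 1160, 899 and 1470 CPM in FH1 to FH4 and 1074, 1789, 2013 and 748 CPM in FL1 to FL4. Every luteal library lay below every follicular one, which held for 1.80% of the 445 miRNAs tested and for none of the 7 named members. It fell 3.84-fold in the luteal phase (log2 fold change -1.94, SE 0.33, edgeR adjusted p = 0.00222) and 5.04-fold in LL vs. FL (-2.33, SE 0.43, edgeR adjusted p = 0.0121). Without a filter on low counts the edgeR adjusted p in LL vs. FL was 0.0788, and DESeq2 without a filter or outlier handling gave adjusted p of 0.380 over the phases and 0.499 in LL vs. FL. In LH vs. FH it was at -1.44 (SE 0.42, edgeR adjusted p = 0.239), and in neither comparison of fecundity was it called. Among the members its total lay between those of let-7e (332333 counts) and miR-98 (132562 counts). Whether its reads come from a let-7 gene was not tested.

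Several let-7 genes lie beside genes of the miR-99, miR-100 and miR-125 families, with which they can be transcribed. In the RefSeq gene table of the later assembly Sscrofa11.1, MIRLET7C lay within 10 kb of MIR99A, MIRLET7A-1 of MIR100, and MIRLET7E of MIR99B and MIR125A. MIRLET7A-2, MIRLET7F-2 and MIRLET7D lay together, as did MIRLET7F-1 and MIR98, whereas MIRLET7G and MIRLET7I had no miRNA gene that near. Of the 5 miRNAs ssc-miR-99a, ssc-miR-99b, ssc-miR-100, ssc-miR-125a and ssc-miR-125b, 3 passed the adjusted threshold in the comparison of phases. All 3 were lower in the luteal phase, where 8.54% of all miRNAs tested were called lower. Among them is ssc-miR-99b, which had 0 counts in whole libraries of both phases, and why was not tested.

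ssc-miR-100 was at 5012, 8928, 6641 and 8366 CPM in LH1 to LH4, 1944 to 4876 CPM in LL, 8492 to 13179 CPM in FH and 8414 to 11935 CPM in FL. LL lay below all other groups, and only LH2 reached the follicular range. It fell 2.20-fold in the luteal phase (log2 fold change -1.14, SE 0.20, edgeR adjusted p = 0.00222) and 3.14-fold in LL vs. FL (-1.65, SE 0.35, edgeR adjusted p = 0.0159). Without LL2 the edgeR adjusted p in LL vs. FL was 0.0547, and with no filter on low counts it was 0.0723. DESeq2 without a filter or outlier handling gave adjusted p of 0.985 over the phases and 0.620 in LL vs. FL. Its neighbour let-7a had a log2 fold change of -0.14 between the phases. The let-7a entry can receive reads from MIRLET7A-1 and from MIRLET7A-2.

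ssc-miR-99a, beside let-7c, was at 106065, 206519, 63904 and 105703 CPM in LH1 to LH4 and 14637, 20923, 31440 and 72587 CPM in LL1 to LL4. It was at 95051 to 176746 CPM in FH and 70846 to 207580 CPM in FL, so that FL1 and LH2 were highest, and LL had the lowest mean although LL4 lay above LH3 and FL4. It fell 2.15-fold in the luteal phase (-1.10, SE 0.34, edgeR adjusted p = 0.0377), a call lost in 13 of 16 fits that left out 1 library, where the adjusted p was up to 0.107. It was also lost with library size only (-0.69, edgeR adjusted p = 0.120), with parity as a covariate (edgeR adjusted p = 0.0510) and in DESeq2 without a filter or outlier handling (adjusted p = 0.985). ssc-miR-99b had 0 counts in all 8 luteal libraries and in FH1 and FL4, and 11971 to 34546 counts in the other 6 follicular libraries. It was called lower in the luteal phase (edgeR adjusted p = 0.00785), with no fold given because whole libraries were at 0. ssc-miR-125a and ssc-miR-125b were at -0.11 and -0.94 and were not called. In LH vs. LL, ssc-miR-99a was at -1.81 (unadjusted P = 0.0139, edgeR adjusted p = 0.220) and ssc-miR-100 at -1.22 (unadjusted P = 0.00694, edgeR adjusted p = 0.202). Both passed the study's threshold there, as 13.0% of all miRNAs tested did, and neither passed the adjusted one. ssc-miR-125a (-0.64) and ssc-miR-125b (-1.11) passed neither. The paper also lists ssc-miR-99a as differentially expressed in LH vs. LL.

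**Figure D5:**
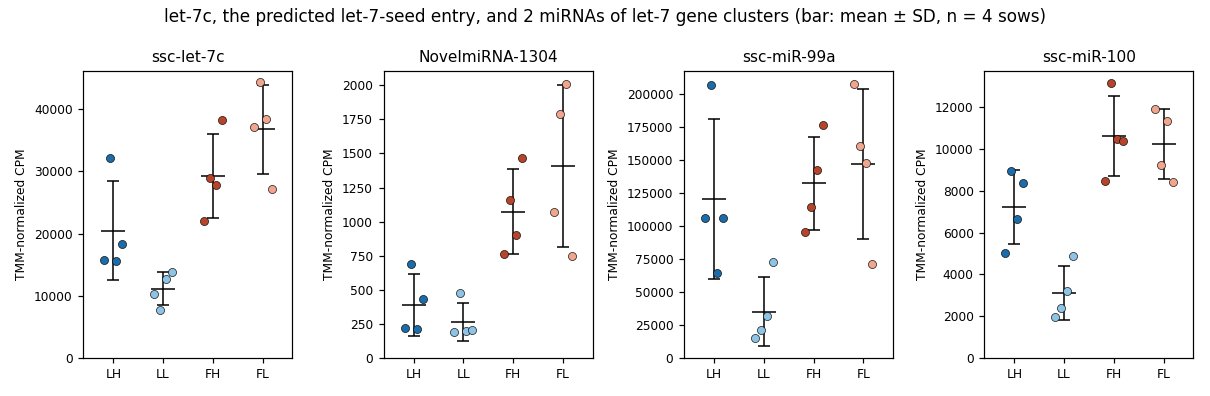
TMM-normalized CPM of let-7c, NovelmiRNA-1304, ssc-miR-99a and ssc-miR-100 in each sow (points), with the mean and SD of 4 sows per group (bars). LL had the lowest mean in all 4 panels, and in NovelmiRNA-1304 the 8 luteal libraries (188 to 692 CPM) lay below the 8 follicular ones (748 to 2013 CPM).

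Across the 16 libraries the members fell into more and less similar patterns, given here as a description. The libraries share groups and TMM factors, and both enter each correlation of log2 CPM. let-7f and let-7g were the most alike (Pearson r = 0.917), followed by let-7e with let-7g (0.848), let-7a with let-7g (0.838), let-7e with let-7f (0.831) and let-7f with miR-98 (0.812). let-7c had r between -0.44 and 0.42 with the other 6 members. It was closer to ssc-miR-100 (0.899), ssc-miR-125b (0.883), ssc-miR-99a (0.882) and NovelmiRNA-1304 (0.849), and less so to ssc-miR-125a (0.593). After centring within groups the first 4 of these values were 0.613, 0.808, 0.781 and 0.478, and that of ssc-miR-125a was 0.751. Among 166 other known miRNAs with reads in every library, those most like the summed family were ssc-miR-92a (r = 0.879), ssc-miR-455-5p (0.874) and ssc-miR-1271 (0.872).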

How the data were processed

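Small RNA libraries of 16 sow ovaries (4 each in LH, LL, FH and FL) were sequenced. The authors cleaned reads with Trimmomatic, mapped them to Sscrofa10.2 with Bowtie2 2.1.0 and predicted further miRNAs with miRDeep. The submitters' processing notes also name DESeq2. The authors deposited raw counts of reads per miRNA, with no normalization, and how a read was assigned to near-identical miRNAs is not given in the sources used here. Library totals were 8998496 to 37194836 counts. A count of 0 allows up to 3 counts (0.0807 to 0.333 CPM before TMM), which covers counting error only since reads were amplified by PCR. No 2 libraries of a group agreed within sampling noise.

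The whole table was fitted by the quasi-likelihood method of edgeR 4.0.16 (R 4.3.3) after TMM scaling and filterByExpr (minimum count 10, minimum total 15), for the 8 libraries of a pair of groups, or all 16 for the phases and the interaction. Adjusted p is Benjamini-Hochberg over all miRNAs tested. All 7 members passed the filter in every comparison. Exact permutation tests used log2(CPM + 1), two-sided. Correlations used the same scale. Tests were checked on simulated counts.

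Samples were grouped by their labels. Named miRNAs are the members, predicted miRNAs with the seed motif (one by one where they had many counts), 5 miRNAs of let-7 gene clusters, and the 3 known miRNAs most like the family. The members, lists and markers were chosen with earlier results of these data known. The seed was searched as a spelled motif, and predicted sequences and positions are from the study's supplementary table. RefSeq genes (Sscrofa11.1) served for names and neighbours only. The alternatives were DESeq2 1.42.0 with and without the filter, other scalings and filters, robust estimation, collapsed identical entries, parity or clean read share as a covariate, a replicate block, a single fit of all libraries, and leaving out each sow. Litter records entered as covariates only, and the mRNA and lncRNA libraries were not analysed here.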

Additional observations from a re-analysis of the deposited data

Results flagged for a closer look

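In groups of 4 sows, 4 values stood apart from the other 3 by Dixon's criterion for the gap to the nearest value over the group's range. Of 68 groups tested, chance gives about 1 in 20. let-7c was at 32227 CPM in LH2, against 15508 to 18337 CPM in the other LH libraries. Without LH2 the log2 fold change of let-7c was -0.58 in LH vs. LL, -0.76 in LH vs. FH and -1.29 over the phases. let-7e was at 1766 CPM in LH1, against 1203 to 1276 CPM in the other LH libraries. NovelmiRNA-1304 was at 475 CPM in LL2, against 188 to 201 CPM in the other LL libraries. miR-98 made up 0.511% of the family's counts in FH1, against 0.427% to 0.442% in the other FH libraries.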

How the results depend on the processing

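Of 1022 values of members under alternatives, 939 kept their direction and side of the threshold, 73 turned direction, 3 lost a call and 7 gained one. The cause was not tested. let-7c kept its calls in every fit that left out 1 library, at -1.92 to -1.48 in LL vs. FL and -1.29 to -1.03 over the phases. DESeq2 with no filter or outlier handling called 0 members by adjusted p or the study's threshold in LL vs. FL and over the phases (let-7c adjusted p 0.623 and 0.985), and 0 by the study's threshold in the interaction. DESeq2 with the same filter called 1 member in the interaction.

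With the replicate block, let-7c in LL vs. FL was at -1.63 (edgeR adjusted p = 0.163) and 0 members were called, and let-7g in the interaction was at 0.025. With it ssc-miR-100 and NovelmiRNA-1304 were not called in LL vs. FL, nor ssc-miR-99a over the phases. In LL vs. FL no miRNA was called with it, against 60 without it. The deviations of 4 of 24 same-numbered pairs of sows correlated over 0.1 (median -0.020, highest 0.37), and 4 of 16 libraries correlated best with their own number. Deviations from means of 4 sows cannot decide whether same-numbered libraries shared a step of preparation, so both fits are given.

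With library size only, LL vs. FL had 3 members past the study's threshold, the phases 6 members by adjusted p, and the interaction 0 by the study's threshold. Directions turned to 0.016 (let-7a), 0.041 (let-7e), 0.037 (let-7f) and 0.12 (let-7g) in LH vs. LL, 0.040 (miR-98) in FH vs. FL, 0.35 (let-7a) and 0.24 (let-7i) in LL vs. FL, 0.31 (let-7a) over the phases, and 0.092 (let-7a), 0.11 (let-7e) and 0.40 (let-7g) in the interaction. With parity as a covariate FH vs. FL turned to 0.10 (let-7a), 0.049 (let-7e), 0.064 (let-7g) and 0.16 (miR-98). With clean read share it turned to 0.15 (let-7a), 0.043 (let-7e), 0.038 (let-7f), 0.17 (let-7g) and 0.31 (miR-98), LL vs. FL to -0.014 (let-7e), the phases to -0.023 (let-7g) and the interaction to 0.024 (let-7g).

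let-7a in LH vs. FH turned to -0.070 with DESeq2 with the same filter and with RLE factors, -0.067 with DESeq2 without a filter, -0.029 with TMM on known miRNAs and -0.080 with 10 counts in 4 libraries, where miR-98 was at -0.0085. In LL vs. FL let-7e turned to -0.082 with TMM on known miRNAs (let-7g -0.021), -0.022 with TMM without the family and with 10 counts in 4 libraries, and -0.031 with identical entries collapsed. In the interaction let-7g turned to 0.056 with TMM on known miRNAs and 0.021 with TMM without the family, and let-7f to -0.0078 with no filter and -0.062 with identical entries collapsed.

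Leaving out 1 library, miR-98 ranged from -0.10 to 0.30 in LH vs. LL, -0.50 to 0.050 in FH vs. FL and -0.11 to 0.24 in LH vs. FH. let-7a ranged from -0.086 to 0.18 in LH vs. FH, -0.57 to 0.088 in LL vs. FL, -0.25 to 0.025 over the phases and -0.50 to 0.025 in the interaction. let-7e ranged from -0.18 to 0.36 in LL vs. FL and -0.39 to 0.055 in the interaction, let-7g from -0.24 to 0.66 and -0.35 to 0.42 there, and let-7f from -0.34 to 0.77 in the interaction. Members past the study's threshold ranged from 0 to 1 in FH vs. FL as in LH vs. LL, 1 to 2 in LL vs. FL and over the phases, and 0 to 2 in the interaction. Members called by adjusted p over the phases ranged from 1 to 2, with 2 without FL1. With identical entries counted once, the family held 9.05% of counts in FH and 10.4% in FL. No member was limited by depth.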
